A study of Mus musculus with 13 samples.

Results

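The reactive astrocyte genes described here are Gfap, Vim, Serpina3n, Steap4, S1pr3, Cd44, Lcn2, Ptx3, Slc10a6 and Tgm1, 10 of the 21056 genes present in all 4 deposited tables of the series. They are a list of gene names, and all 10 were found and passed the filter on low counts. In work on mouse brain, 7 of them (Gfap, Vim, Serpina3n, Steap4, S1pr3, Cd44 and Lcn2) have been listed as pan-reactive, meaning induced in astrocytes by more than 1 kind of injury. The other 3 (Ptx3, Slc10a6 and Tgm1) have been listed as A2, a set first drawn from astrocytes after arterial occlusion.

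The 13 libraries were made from total RNA of mouse brain, each from its own animal, in 4 groups. All mice, controls included, were male, carried CX3CR1creER/+ (a tamoxifen-inducible Cre inserted at the fractalkine receptor gene) together with an inducible diphtheria toxin receptor at the Rosa locus (iDTR/+), and received 2 doses of tamoxifen. The tMCAO_DE group (n = 2) received diphtheria toxin at 50 ng per g on 3 days, starting 30 days after tamoxifen, and a 60 min occlusion of the middle cerebral artery by a filament. The tMCAO_CON group (n = 4) received saline and the occlusion, the sham_DE group (n = 4) toxin and sham surgery, and the sham_CON group (n = 3) saline and sham surgery. Cre at this locus is active in microglia and in other mononuclear phagocytes, and toxin was given only to the DE groups, so exposure to toxin and loss of the targeted cells cannot be told apart. Age was labelled as 6 to 8 weeks at surgery, which conflicts with tamoxifen at 7 to 8 weeks and toxin 30 days later. Neither the time of sampling after surgery nor the brain region is given in the sources used here.

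Astrocytes answer injury, infection and loss of neurons with a graded change called reactive gliosis, in which the cells enlarge and build more intermediate filament protein. Microglia and infiltrating cells drive part of this change through cytokines, and cytokines of the interleukin-6 family act on astrocytes through the kinase JAK and the transcription factor STAT3. In focal stroke, reactive astrocytes surround the infarct and form the border of the glial scar.

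Libraries held 16239763 to 22080367 counts, and levels are CPM, counts relative to the library total after scaling by TMM, which corrects for differences in library composition. Summed over 8 microglial markers, the level was 30.2 to 32.7 CPM in tMCAO_DE and 229 to 289 CPM in tMCAO_CON, and 26.2 to 54.4 CPM in sham_DE and 255 to 267 CPM in sham_CON. The 10 astrocyte markers (among them Aldh1l1, Slc1a2, Slc1a3 and Aqp4) summed to 3853 to 6808 CPM over all libraries. Mitochondrial genes took 7.84% to 8.74% of counts in toxin groups and 9.03% to 9.86% in saline groups. Replicate 1 of sham_DE lay at 5.04 on the first principal component (32.6% of variance), against -48.0 to -31.9 for the other sham_DE libraries. Replicate 4 of tMCAO_CON carries a treatment entry that reads sham surgery, although its title and description give tMCAO. On the second component (23.1% of variance) it lay at 22.4, with 20.03 to 38.4 in the other tMCAO_CON libraries and -35.1 to -16.0 in all sham libraries. Without that library, or without sham_DE replicate 1, the same numbers of members passed in every comparison below.

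Stretches of 3 promoters are printed because they are the ones among the 10 members that hold the letters TTCNNNGAA, the core of the element bound by STAT proteins. The sequences are from RefSeq on build GRCm38.p6, 5′ to 3′ on the strand of the gene, and capitals mark matches. Gfap is shown around its start site (chr11:102897191-102897220, minus strand), Steap4 from 250 to 88 bases before it (chr5:7960222-7960384, plus strand), and Tgm1 from 193 to 36 bases before it (chr14:55713528-55713685, minus strand).
Gfap: gctattcaatgggggtgcTTCCAGGAAgtc
Steap4: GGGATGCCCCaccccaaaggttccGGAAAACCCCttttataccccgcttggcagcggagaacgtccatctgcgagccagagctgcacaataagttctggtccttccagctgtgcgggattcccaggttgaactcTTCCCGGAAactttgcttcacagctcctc
Tgm1: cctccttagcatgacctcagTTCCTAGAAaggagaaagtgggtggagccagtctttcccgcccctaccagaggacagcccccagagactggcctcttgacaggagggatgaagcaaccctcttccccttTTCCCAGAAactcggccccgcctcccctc
The match begins 2 bases before the start site in Gfap, 116 bases before it in Steap4, and 173 and 64 bases before it in Tgm1. The first 2 runs of capitals in Steap4 match the NF-kB consensus, and the last run is the STAT match. In windows from 250 bases before to 50 bases after the start site, searched on both strands, TTCNNNGAA was found in 8.30% of 32851 mouse promoters. The AP-1 letters TGANTCA were in 7.81% of promoters and in 0 of the 10 members. The NF-kB consensus was in 8.46% of promoters and in 3 members, namely Ptx3, Steap4 and Vim. A match describes letters only and is neither a site nor a cause.

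In the GENCODE annotation of GRCm38, the filament genes lie at chr11:102887336-102900912 (Gfap, minus strand) and chr2:13573927-13582826 (Vim, plus strand). The RefSeq start site of Gfap used above lies inside the GENCODE interval. The genes of secreted products lie at chr12:104406729-104414329 (Serpina3n, plus strand), chr2:32384633-32388252 (Lcn2, minus strand) and chr3:66219910-66225805 (Ptx3, plus strand). The membrane proteins are encoded at chr2:102811141-102901665 (Cd44, minus strand), chr5:7960457-7982213 (Steap4, plus strand), chr5:103605711-103629403 (Slc10a6, minus strand) and chr13:51408639-51422797 (S1pr3, plus strand). Tgm1 lies at chr14:55700009-55713926 on the minus strand.

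Occlusion with microglia present raised 9 of the 10 genes in tMCAO_CON over sham_CON, where 5.14% of 16940 tested genes were called higher (edgeR quasi-likelihood test, two-sided, Benjamini-Hochberg adjusted p under 0.05 over all tested genes). The median log2 fold change of the 10 genes was 3.72, with Slc10a6 at its lower bound, and that of all tested genes was 0.02. For the 9 genes, every tMCAO_CON library was above every sham_CON library, which held for 13.1% of all tested genes. The members were chosen with earlier results of these data known. Here and below, the shares over all genes are thus no independent test of the list. S1pr3, a receptor for the lipid mediator sphingosine 1-phosphate, was the one that did not pass. Slc10a6 had 0 to 2 and Ptx3 0 to 11 counts per sham library. These genes passed the filter on low counts through the occluded libraries, in which they were called higher. Without that filter the same 9 genes were called here and on occlusion after depletion. In bulk tissue, more cells of a type and more RNA per cell cannot be told apart.

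The filament proteins come first. Gfap, the main intermediate filament protein of astrocytes, had 667, 790, 1012 and 924 CPM in tMCAO_CON and 51.0, 91.4 and 63.4 CPM in sham_CON. The lowest occluded library was far above the highest sham library, and the log2 fold change was 3.63 ± 0.20 (SE; edgeR adjusted p = 1.2e-06). Vim, the filament protein vimentin, which endothelial cells, fibroblasts and immature astrocytes also make, had 55.4, 53.7, 102 and 61.5 CPM in tMCAO_CON against 16.0, 30.0 and 22.99 CPM in sham_CON. The groups did not overlap, replicate 3 was highest, and the log2 fold change of 1.57 ± 0.24 (adjusted p = 0.0022) was the smallest among the 9 genes that passed.

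The secreted products were raised as well. Serpina3n, a secreted inhibitor of serine proteases, had 140, 269, 198 and 254 CPM in tMCAO_CON and 11.6, 16.5 and 16.7 CPM in sham_CON, a log2 fold change of 3.85 ± 0.25 (adjusted p = 3.6e-06). Serpina3n belongs to a family of near-identical copies, so its counts are uncertain. Lcn2, the iron-siderophore binding protein lipocalin 2, had 9.93, 35.1, 19.9 and 12.4 CPM in tMCAO_CON against 0.376, 2.09 and 1.36 CPM in sham_CON, a log2 fold change of 3.94 ± 0.63 (adjusted p = 0.0026). Ptx3, a long pentraxin that binds microbes and extracellular matrix, had 2.59, 7.82, 13.4 and 1.55 CPM in tMCAO_CON and 0.215, 0 and 0.113 CPM in sham_CON. All 4 occluded libraries were above the sham libraries, which held 6 Ptx3 counts in total, and the log2 fold change was 5.73 ± 0.93 (adjusted p = 0.0029). It was 5.06 for Ptx3 without tMCAO_CON replicate 3 and 6.61 without sham_CON replicate 1.

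Among the membrane proteins, Cd44, the hyaluronan receptor, had 7.17, 8.39, 21.8 and 6.31 CPM in tMCAO_CON and 1.18, 1.56 and 1.64 CPM in sham_CON. Replicate 3 stood high in the occluded group, the groups did not overlap, and the log2 fold change was 2.89 ± 0.42 (adjusted p = 0.0016). Steap4, a metalloreductase of iron and copper, had 1.99, 4.03, 4.65 and 2.47 CPM in tMCAO_CON against 0.161, 0.957 and 0.508 CPM in sham_CON, a log2 fold change of 2.61 ± 0.45 (adjusted p = 0.0041) that was 3.28 without sham_CON replicate 2. Slc10a6, a carrier of sulfated steroids, had 18, 96, 36 and 39 counts in tMCAO_CON and 0 counts in each of the 3 sham_CON libraries. It was at least 14.1-fold higher in tMCAO_CON, taking a floor of 3 counts per sham_CON library (adjusted p = 0.0015). S1pr3 had 13.7, 14.8, 21.4 and 12.8 CPM in tMCAO_CON and 12.8, 11.01 and 10.8 CPM in sham_CON, where the groups overlapped. Its log2 fold change was 0.44 ± 0.20 (adjusted p = 0.22; 95% interval -0.01 to 0.88).

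The enzyme Tgm1, a transglutaminase that cross-links proteins and is best known from skin, had 7.06, 18.7, 42.2 and 6.74 CPM in tMCAO_CON and 0.107, 0 and 0.339 CPM in sham_CON. The sham libraries held 8 Tgm1 counts in total, so its log2 fold change of 6.89 ± 1.003 (adjusted p = 0.0015) rests on few sham counts. It was 6.10 without tMCAO_CON replicate 3 and 8.20 without sham_CON replicate 3.

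Markers of other cells that also make some of these proteins were measured in the same libraries. Fibroblast markers summed to 50.9 to 93.4 CPM in tMCAO_CON and 18.8 to 32.6 CPM in sham_CON, and 4 of the 7 (Col1a1, Col1a2, Col3a1 and Dcn) were called higher. Border macrophage markers summed to 13.7 to 24.5 CPM in tMCAO_CON and 6.33 to 8.67 CPM in sham_CON, with 4 of 7 called higher (Lyve1, Cd163, F13a1 and Folr2). Of 8 endothelial markers, Pecam1 and Ly6c1 were called higher, and all 8 summed to 308 to 386 CPM in tMCAO_CON and 294 to 363 CPM in sham_CON. Of 5 monocyte markers 4 were tested, and 1, Fn1, was called higher. All 5 summed to 117 to 179 CPM in tMCAO_CON and 60.0 to 113 CPM in sham_CON. Of 10 neutrophil markers 7 were tested, and 0 of these were called. All 10 summed to 1.26 to 3.94 CPM in tMCAO_CON and 1.29 to 34.9 CPM in sham_CON. Ly6g was at 0 in tMCAO_CON and Cxcr2 at 0 in sham_CON. The part of fibroblasts, macrophages, monocytes and endothelial cells in the members' levels was not tested.

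**Figure D1:**
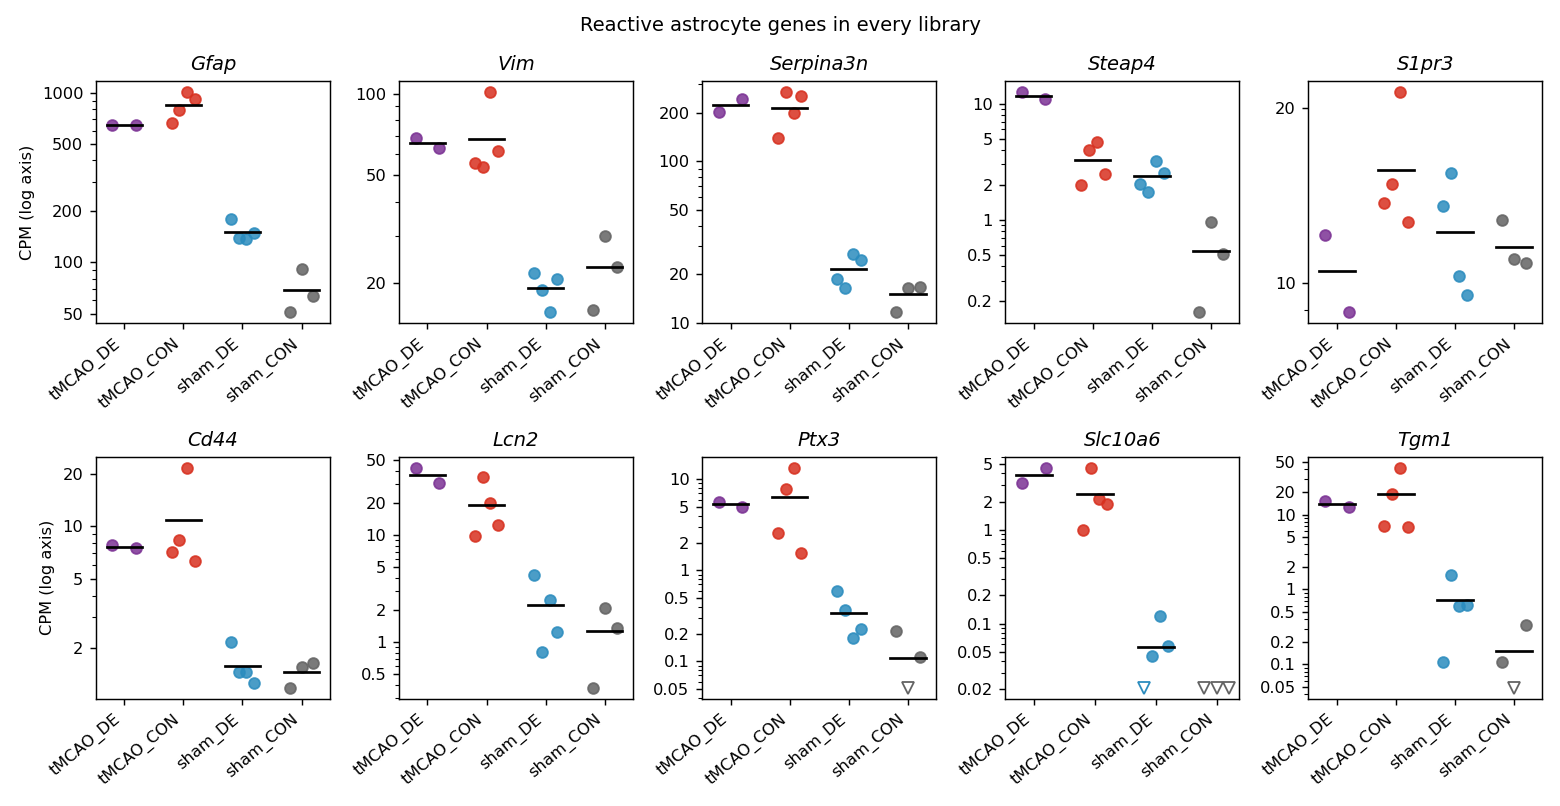
Level of each gene in CPM (log axis) in every library of the 4 groups, with points for libraries, a black bar for the group mean and open triangles at the axis bottom for 0 counts. In 9 of the 10 panels the tMCAO_DE and tMCAO_CON points lie above all sham_CON points, while those of S1pr3 do not separate.

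Depletion alone raised 2 of the 10 genes, Gfap and Steap4, in sham_DE over sham_CON, and lowered 0. In the same comparison 6.85% of all tested genes were called higher. The median log2 fold change was 0.80 over the 9 genes other than Slc10a6, whose counts were at or under the floor of 3 per library in both groups, and -0.00 over all tested genes. The occlusion and the depletion comparison share the sham_CON libraries.

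Gfap had 180, 139, 137 and 150 CPM in sham_DE and 51.0, 91.4 and 63.4 CPM in sham_CON. All sham_DE libraries were above all sham_CON libraries, with a log2 fold change of 1.14 ± 0.18 (edgeR adjusted p = 0.0044). Steap4 had 2.05, 1.73, 3.23 and 2.51 CPM in sham_DE and 0.161, 0.957 and 0.508 CPM in sham_CON, again without overlap and with a log2 fold change of 2.14 ± 0.46 (adjusted p = 0.014). The Steap4 call rested on 28 sham_CON counts, and without sham_CON replicate 1 or 3 it was 1.69 (adjusted p = 0.054) or 2.104 (adjusted p = 0.058). It was 2.81 without sham_CON replicate 2. The share of all tested genes without overlap between sham_DE and sham_CON was not counted. The lack of overlap for Gfap and Steap4 therefore has no background here.

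Neither the other filament gene nor the secreted products passed after depletion alone. Vim had 21.8, 18.9, 15.7 and 20.8 CPM in sham_DE against 16.0, 30.0 and 22.99 CPM in sham_CON, which overlapped, and its log2 fold change was -0.25 ± 0.24 (adjusted p = 0.52). Serpina3n averaged 21.6 ± 4.79 CPM in sham_DE and 15.0 ± 2.87 CPM in sham_CON (SD, n = 4 and 3), a log2 fold change of 0.53 ± 0.23 (adjusted p = 0.16). Lcn2 averaged 2.21 ± 1.55 CPM in sham_DE and 1.27 ± 0.862 CPM in sham_CON (log2 fold change 0.80 ± 0.69, adjusted p = 0.48). Ptx3 averaged 0.342 ± 0.185 CPM in sham_DE and 0.109 ± 0.107 CPM in sham_CON (log2 fold change 1.57 ± 1.26, adjusted p = 0.44). Lcn2 and Ptx3 were low in brains without occlusion, and their standard errors are wide.

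Cd44 averaged 1.58 ± 0.398 CPM in sham_DE and 1.46 ± 0.244 CPM in sham_CON, a log2 fold change of 0.12 ± 0.46 (adjusted p = 0.89). S1pr3 averaged 12.2 ± 2.80 CPM in sham_DE and 11.6 ± 1.10 CPM in sham_CON, a log2 fold change of 0.08 ± 0.20 (adjusted p = 0.82). Tgm1 had 0.108, 1.55, 0.609 and 0.627 CPM in sham_DE and 0.107, 0 and 0.339 CPM in sham_CON, and its log2 fold change of 2.27 ± 1.36 did not pass (adjusted p = 0.29). Slc10a6 had 0, 1, 2 and 1 counts in sham_DE and 0 in all sham_CON libraries, so no fold is given.

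Markers of other cells also moved with the toxin. Border macrophage markers such as Lyve1, Cd163 and Mrc1 summed to 30.4 to 41.7 CPM in sham_DE and 6.33 to 8.67 CPM in sham_CON, and 6 of the 7 were called higher. The astrocyte markers summed to 3853 to 6455 CPM in sham_DE and 6720 to 6808 CPM in sham_CON, and 0 of the 10 passed. A sum below sham_CON was not particular to depletion. In tMCAO_CON it was 5155 to 6052 CPM, where Aldh1l1 and Aqp4 were called higher and Glul lower than in sham_CON. The neutrophil markers reached 35.9 CPM in sham_DE replicate 3 and 34.9 CPM in sham_CON replicate 2, against 1.29 to 3.31 CPM in the other sham libraries. The same 2 genes passed without that pair of libraries. The part of these cells in the members' levels was not tested.

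**Figure D2:**
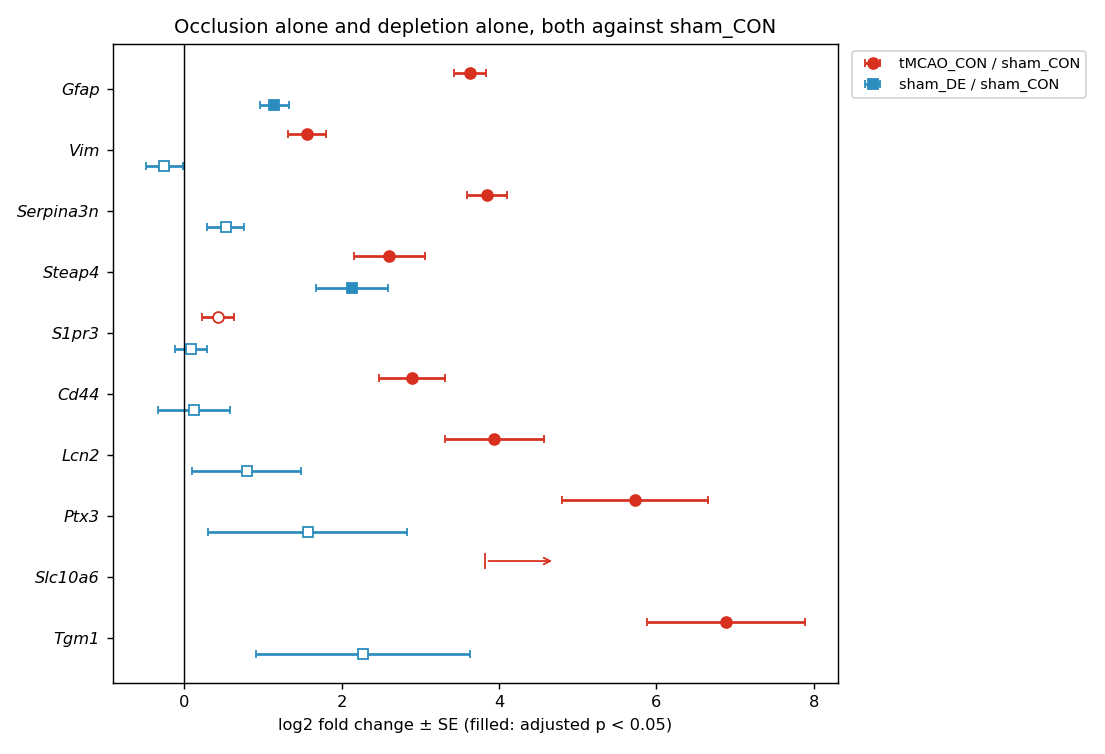
Log2 fold change against sham_CON of each of the 10 genes for occlusion (tMCAO_CON) and for depletion alone (sham_DE), with bars of 1 SE, open symbols where the adjusted p is 0.05 or more and an arrow for the lower bound of Slc10a6. Occlusion values lie between 0.44 and 6.89, while for depletion only Gfap at 1.14 and Steap4 at 2.14 are filled.

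Set against each other directly, tMCAO_CON was above sham_DE for 8 of the 10 genes, where 12.7% of all tested genes were called higher, and the exceptions were Steap4 and S1pr3. Steap4 averaged 3.28 ± 1.26 CPM in tMCAO_CON and 2.38 ± 0.651 CPM in sham_DE (SD, n = 4 each), and its libraries overlapped. Its log2 fold change was 0.47 ± 0.33 (adjusted p = 0.33; 95% interval -0.25 to 1.19), and a p that misses the threshold does not show equal levels. For S1pr3 the log2 fold change was 0.35 ± 0.19 (adjusted p = 0.19). Gfap averaged 848 ± 151 CPM in tMCAO_CON and 151 ± 19.8 CPM in sham_DE, a log2 fold change of 2.49 ± 0.17 (adjusted p = 2e-06). Of the other 7 genes that passed, 6 had log2 fold changes of 1.82 (Vim) to 4.62 (Tgm1). For Tgm1 it was 3.84 without tMCAO_CON replicate 3 and 5.38 without sham_DE replicate 2, and for Ptx3 it was 4.16, and 3.50 without tMCAO_CON replicate 3. Slc10a6 had 18, 96, 36 and 39 counts in tMCAO_CON and 0, 1, 2 and 1 counts in sham_DE (adjusted p = 0.00039), and no fold is given because its sham_DE counts lie under the floor. Cell type markers differed between the same groups. Among astrocyte markers, Aldh1l1 and Aqp4 were higher in tMCAO_CON and Glul lower. Higher in tMCAO_CON were 7 of 8 microglial, 5 of 8 endothelial (Cldn5, Pecam1, Cdh5, Kdr and Ly6c1) and 3 of 7 fibroblast markers (Col1a1, Col1a2 and Dcn). Lower were 4 of 7 border macrophage markers (Lyve1, Cd163, Mrc1 and F13a1). Of the remaining lists, Fn1 (monocyte), Mag (oligodendrocyte) and Ttr (ependymal and choroid) were higher. Mpo (neutrophil), Cnp (oligodendrocyte), Rbfox3 and Snap25 (neuron) were lower. The part of these cells in the members' levels was not tested.

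After depletion, occlusion raised the same 9 genes in tMCAO_DE over sham_DE, against 6.59% of all tested genes called higher, and S1pr3 again did not pass. Gfap had 646 and 648 CPM in tMCAO_DE and 180, 139, 137 and 150 CPM in sham_DE, a log2 fold change of 2.09 ± 0.19 (adjusted p = 7.1e-05). Vim had 68.5 and 63.0 CPM in tMCAO_DE against 21.8, 18.9, 15.7 and 20.8 CPM in sham_DE (log2 fold change 1.77 ± 0.25, adjusted p = 0.0013). Serpina3n had 203 and 244 CPM in tMCAO_DE against 18.7, 16.5, 26.8 and 24.4 CPM in sham_DE (log2 fold change 3.37 ± 0.24, adjusted p = 8.5e-06). For all 9 genes both tMCAO_DE libraries were above the 4 sham_DE libraries, which held for 19.5% of all tested genes, and the median log2 fold change was 2.84 over the 10 genes and -0.00 over all tested genes. Of the 8 endothelial markers, 4 were called higher in this comparison (Cldn5, Pecam1, Cdh5 and Ly6c1), with sums of 326 to 342 CPM in tMCAO_DE and 244 to 318 CPM in sham_DE, and their part in the members' levels was not tested. Of the 7 fibroblast and the 7 border macrophage markers, 0 were called higher. Fibroblast markers summed to 30.8 to 51.4 CPM in tMCAO_DE and 28.2 to 43.7 CPM in sham_DE.

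Lcn2 had 42.7 and 30.5 CPM in tMCAO_DE against 4.27, 0.818, 2.50 and 1.25 CPM in sham_DE (log2 fold change 4.06 ± 0.56, adjusted p = 0.0011). Ptx3 had 5.68 and 5.01 CPM in tMCAO_DE against 0.595, 0.364, 0.183 and 0.228 CPM in sham_DE (log2 fold change 3.92 ± 0.75, adjusted p = 0.0066). Tgm1 had 15.1 and 12.7 CPM in tMCAO_DE against 0.108, 1.55, 0.609 and 0.627 CPM in sham_DE (log2 fold change 4.20 ± 0.75, adjusted p = 0.0049), and 4.96 without sham_DE replicate 2. Both occluded libraries lay well above all sham libraries for each of these genes. Cd44 had 7.78 and 7.54 CPM in tMCAO_DE against 2.16, 1.46, 1.46 and 1.25 CPM in sham_DE (log2 fold change 2.27 ± 0.43, adjusted p = 0.0059). Slc10a6 had 63 and 91 counts in tMCAO_DE and 0, 1, 2 and 1 counts in sham_DE (adjusted p = 0.0009), with no fold given because the sham_DE counts lie under the floor. S1pr3 had 12.1 and 8.91 CPM in tMCAO_DE against 13.6, 15.5, 10.3 and 9.52 CPM in sham_DE, which overlapped (log2 fold change -0.22 ± 0.23, adjusted p = 0.58).

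Within occluded brains, 1 gene of the 10, Steap4, was called higher with depletion, which is near the share of 9.36% of all tested genes. Called lower were 0 of the 10, against 1569 of the 16940 tested genes. Steap4 had 12.6 and 10.9 CPM in tMCAO_DE and 1.99, 4.03, 4.65 and 2.47 CPM in tMCAO_CON, with no overlap and a log2 fold change of 1.84 ± 0.36 (adjusted p = 0.0061; 95% interval 1.06 to 2.62). Its level was thus highest in brains that had received both toxin and occlusion, and it was 0.542 ± 0.399 CPM in sham_CON (SD, n = 3). With tMCAO_DE replicate 2 left out, 1 library represents that group and the adjusted p was 0.052. Border macrophage markers moved in the same comparison, with 3 of 7 higher (Lyve1, Cd163 and F13a1) and sums of 35.7 to 46.9 CPM in tMCAO_DE and 13.7 to 24.5 CPM in tMCAO_CON. Col1a1 of the fibroblast, Fn1 of the monocyte and Tek of the endothelial markers were lower, and 7 of 8 microglial markers were lower. Among astrocyte markers, Aqp4 was lower (log2 fold change -0.75 ± 0.16, adjusted p = 0.0085) and Glul higher (0.26 ± 0.07, adjusted p = 0.021). The part of these cells in the Steap4 level was not tested.

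Gfap had 646 and 648 CPM in tMCAO_DE against 667, 790, 1012 and 924 CPM in tMCAO_CON. Both depleted libraries lay just below the lowest control library, but the log2 fold change of -0.39 ± 0.20 did not pass (adjusted p = 0.19; 95% interval -0.83 to 0.05). S1pr3 had 12.1 and 8.91 CPM in tMCAO_DE and 13.7, 14.8, 21.4 and 12.8 CPM in tMCAO_CON, also without overlap and without passing (log2 fold change -0.57 ± 0.23, adjusted p = 0.10). For Vim the 95% interval of the log2 fold change was -0.60 to 0.51 and for Serpina3n -0.46 to 0.57. The other 5 genes overlapped between the groups, with adjusted p from 0.22 for Lcn2 to 0.82 for Ptx3. The share of all tested genes without overlap between tMCAO_DE and tMCAO_CON was not counted. The lack of overlap for Gfap, S1pr3 and Steap4 therefore cannot be set against a background. Between tMCAO_DE and sham_DE, groups of the same sizes, every tMCAO_DE library was higher for 19.5% of all tested genes.

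Whether the effect of occlusion differed with depletion was tested as an interaction. It was called for 0 of the 10 genes and for 0.0472% of all tested genes (edgeR). At an unadjusted p under 0.05 the count was 1 of 10, which was Gfap. The share of all tested genes at that threshold was not counted. DESeq2 and limma each called 1 of the 10, also Gfap. Over all tested genes DESeq2 called 31 higher and 83 lower. Limma called 3 higher and 20 lower with a pseudocount of 0.1, and 6 and 26 with a pseudocount of 1. The log2 fold change of Gfap on occlusion was 2.09 after depletion and 3.63 with microglia, a difference of -1.53 ± 0.27 (unadjusted p = 8.5e-05, edgeR adjusted p = 0.089; 95% interval -2.13 to -0.94). Between toxin and saline groups, the Gfap log2 fold change was 1.14 ± 0.18 in sham brains (edgeR adjusted p = 0.0044). In occluded brains it was -0.39 ± 0.20 (edgeR adjusted p = 0.19). For Steap4 the difference was -0.30 ± 0.58 (adjusted p = 0.91; 95% interval -1.56 to 0.96). For Vim it was 0.20 ± 0.35 (adjusted p = 0.89) and for Serpina3n -0.48 ± 0.34 (adjusted p = 0.67). For Tgm1 it was -2.69 ± 1.51 (edgeR adjusted p = 0.58), for Ptx3 -1.81 ± 1.41 (0.71) and for S1pr3 -0.66 ± 0.31 (0.52). The median was -0.63 over the 9 genes other than Slc10a6 and -0.02 over all tested genes. Of the 10 estimates, 2 were above 0 (Vim and Lcn2), as were 46.7% of those of all tested genes.

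**Figure D3:**
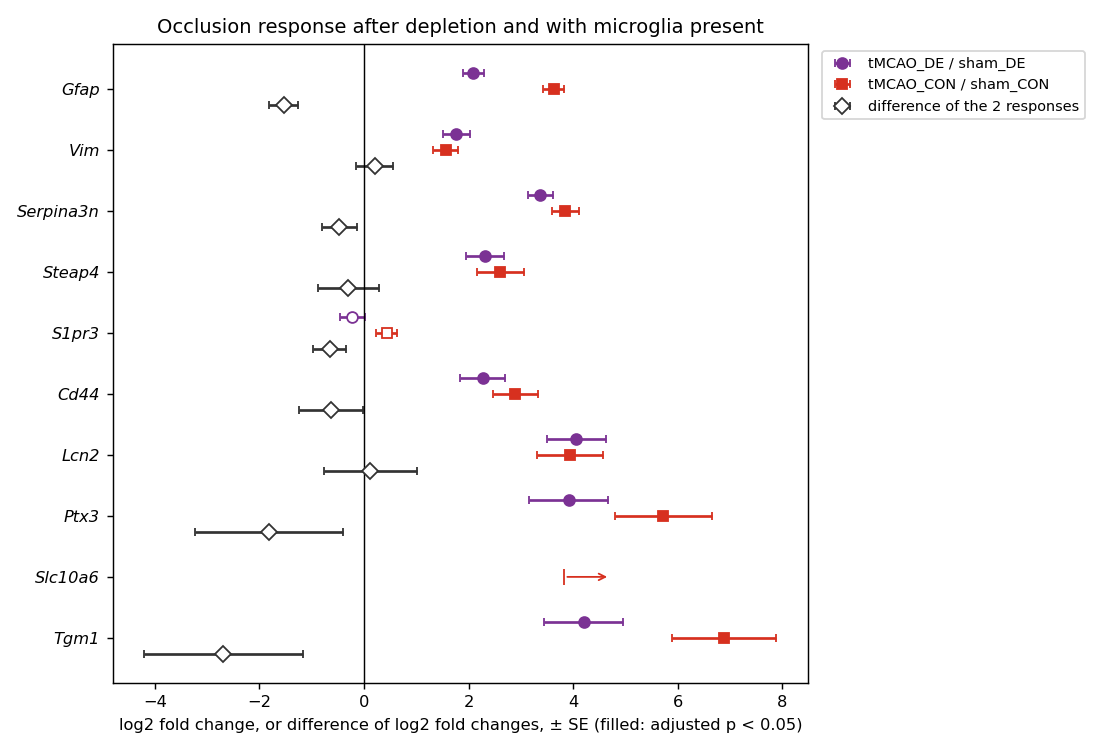
Log2 fold change on occlusion of each gene after depletion (tMCAO_DE over sham_DE) and with microglia present (tMCAO_CON over sham_CON), and the difference of both (open diamonds), with bars of 1 SE, open symbols where the adjusted p is 0.05 or more and an arrow for the lower bound of Slc10a6. Slc10a6 has no symbol for the response after depletion. Both responses of the other genes lie well above 0 except for S1pr3. Gfap shows the gap of 2.09 after depletion and 3.63 with microglia, which edgeR did not call (adjusted p = 0.089).

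The occluded control brains varied among themselves, and the spread differed by gene. Across the 4 tMCAO_CON libraries the highest was 1.52 times the lowest for Gfap, 1.89 for Vim, 1.92 for Serpina3n and 1.67 for S1pr3. It was 2.34 times for Steap4, 3.45 for Cd44, 3.54 for Lcn2, 4.64 for Slc10a6, 6.26 for Tgm1 and 8.64 for Ptx3. Replicate 3 was the highest library for 7 genes and replicate 2 for the other 3 (Serpina3n, Lcn2 and Slc10a6). Replicate 3 also had the highest sums of fibroblast markers (93.4 CPM, against 50.9 to 78.7 CPM in the others), of monocyte markers (179 CPM against 117 to 157 CPM) and of endothelial markers (386 CPM against 308 to 325 CPM). It was highest as well for microglial (289 CPM), border macrophage (24.5 CPM), oligodendrocyte (2363 CPM), ependymal and choroid (13.2 CPM) and neutrophil markers (3.94 CPM). For astrocyte and neuron markers another tMCAO_CON library was highest. The part of these cells in the levels of the members was not tested. The 2 tMCAO_DE libraries differed by at most 1.46 times for any of the 10 genes. A range over 2 libraries tends to be narrower than a range over 4, so these spreads do not compare the groups.

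**Figure D4:**
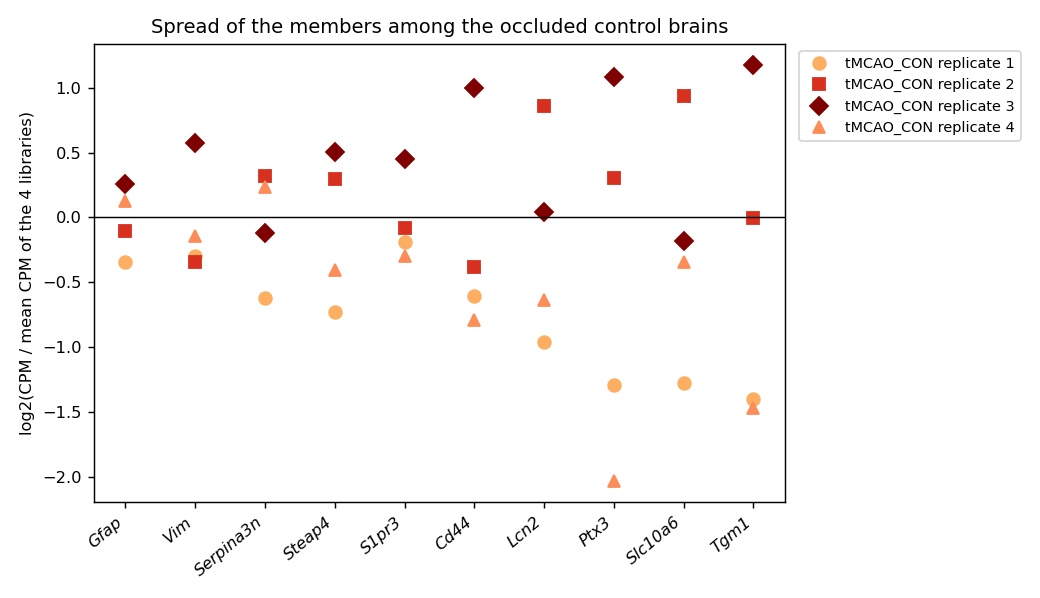
Level of each gene in each of the 4 tMCAO_CON libraries, as the log2 of its CPM over the mean CPM of the group, with 1 symbol per replicate. Ptx3, Tgm1 and Slc10a6 spread most, and replicate 3 is highest for 7 genes.

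Related genes gave the setting, in lists also chosen with earlier results of these data known. Among all tested genes, 5.14% were called higher on occlusion and 6.85% on depletion alone. Called lower were 560 and 760 of the 16940 tested genes. A single call in a list this short is not a result about the list. Of 6 other pan-reactive genes, all 6 were higher in tMCAO_CON than in sham_CON, and 1, Cxcl10, was higher in sham_DE than in sham_CON. Cxcl10, a chemokine that draws T cells, averaged 8.14 ± 6.55 CPM in tMCAO_CON, 2.37 ± 0.430 CPM in sham_DE and 0.350 ± 0.307 CPM in sham_CON, and its depletion log2 fold change was 2.72 ± 0.72 (adjusted p = 0.031). Osmr, the oncostatin M receptor, averaged 43.9 ± 9.07 CPM in tMCAO_CON and 5.36 ± 1.26 CPM in sham_CON, and Hspb1, a small heat shock protein, 23.2 ± 5.96 CPM in tMCAO_CON and 3.63 ± 0.299 CPM in sham_CON. Of 9 other A2 genes, 7 were higher on occlusion and 1, Emp1, was higher on depletion alone, while Cd14, which myeloid cells also make, was lower on depletion alone (log2 fold change -2.37 ± 0.64, adjusted p = 0.032).

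Of 12 genes listed as A1, a set drawn from astrocytes after lipopolysaccharide, 5 were higher on occlusion (Serping1, Ggta1, Fbln5, Srgn and Amigo2). On depletion alone 1 was higher, C3, the central complement component, at 3.45 ± 2.04 CPM in sham_DE and 0.636 ± 0.287 CPM in sham_CON (log2 fold change 2.42 ± 0.56, adjusted p = 0.019). C3 is also made by myeloid cells. On occlusion C3 averaged 1.09 ± 0.435 CPM in tMCAO_CON and did not pass (adjusted p = 0.49).

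Of 13 genes of the interleukin-6 family and STAT3 axis, 7 were higher on occlusion. On depletion alone 0 were higher and 1 was lower, the interleukin-6 receptor gene Il6ra (log2 fold change -0.65 ± 0.17, adjusted p = 0.029). Stat3 averaged 116 ± 16.0 CPM in tMCAO_CON, 47.1 ± 3.75 CPM in sham_DE and 47.1 ± 2.44 CPM in sham_CON, and its inhibitor Socs3 averaged 22.9 ± 9.09 CPM in tMCAO_CON, 4.72 ± 0.516 CPM in sham_DE and 4.12 ± 1.27 CPM in sham_CON. Of 6 other intermediate filament genes, only Des, the muscle and pericyte filament protein desmin, was higher on occlusion, and 0 were on depletion alone. Of 14 genes of resting astrocytes, Aldh1l1 and Aqp4 were higher and Glul lower on occlusion, and Atp1b2 was lower on depletion alone. Aqp4, the astrocyte water channel, averaged 117 ± 19.9 CPM in tMCAO_CON and 76.0 ± 6.55 CPM in sham_CON.

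**Figure D5:**
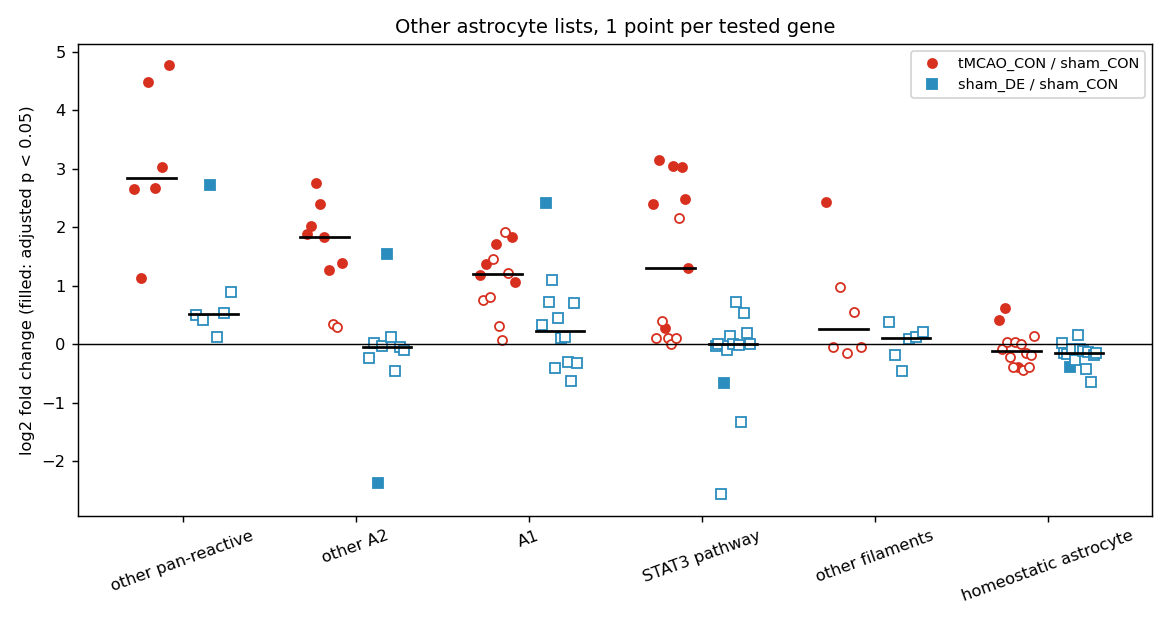
Log2 fold changes of the genes of 6 related lists for occlusion (tMCAO_CON over sham_CON) and for depletion alone (sham_DE over sham_CON), filled where the adjusted p is under 0.05, with a black bar for the median of a list. The other pan-reactive genes lie highest on occlusion, with a median of 2.85, and the homeostatic astrocyte genes lie near 0 in both.

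Across all tested genes with a mean of at least 1 CPM, the 3 with log2 fold changes against sham_CON most like those of Gfap in all 3 groups were Thbs1, Tubb6 and Atf3, which differed from Gfap by at most 0.15, 0.40 and 0.48. For Vim they were Nlrc5, Il11ra2 and Oasl2, at most 0.14, 0.20 and 0.20 away, and Il11ra2 has near-identical copies, so its counts are uncertain. These values share the same 13 libraries and the same sham_CON group.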

How the data were processed

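Per the labels' protocols, column-purified total RNA was used for paired-end TruSeq libraries. The counts per gene were deposited by the authors without normalisation, and the authors' deposited FPKM, per the file headers, are normalised for transcript length and depth. The submitters' processing notes name Cuffdiff, Cufflinks 2.1.1 and the build mm10. Which aligner, annotation and counting tool were used, and whether counting used strand, is not given in the sources used here, so reads of genes that overlap on opposite strands cannot be told apart. This concerns Gfap (Gm26668, 9 counts over all libraries) and Ptx3 (Veph1, 16 counts), and further S1pr3, Cd44, Slc10a6 and Tgm1, whose partners were not analysed here.

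Of 22110 entries in the sham and 22160 in the tMCAO tables, 21056 genes were in all 4. Up to 26 date-like names per table (gene symbols altered by spreadsheet software) were dropped, counts of up to 27 symbols with several entries were summed, and 4 columns of group means were not used. Counts were scaled by TMM and filtered with filterByExpr, which kept 16940 genes and removed 4116. A model of 4 group means over all 13 libraries was fitted with edgeR 4.0.16 in R 4.3.3 (quasi-likelihood test, biological coefficient of variation 15.2%, prior degrees of freedom 4.17), with Benjamini-Hochberg adjustment over all tested genes and a threshold of 0.05. Each standard error is the size of the log2 fold change over the root of its F statistic. Floors of 3 counts per library cover counting error only. The method was tested on simulated data before use. Alternatives used DESeq2 1.42.0, limma 3.58.1 on log2 FPKM with a pseudocount of 0.1 or 1, other scaling and filters, and libraries left out.

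Replicates of each group differed by more than sampling noise, with a chi-square per gene of at least 11.2. The number of the Rosa locus in the genotype entries differs between libraries, and treating them as 1 genotype is an assumption. The members and all lists were chosen with earlier results of these data known. Beside the 10 members, genes were named from each list by the smallest adjusted p on occlusion and on depletion alone, up to 3 each, and trimmed to those described, and by likeness of their fold changes to Gfap and Vim.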

Additional observations from a re-analysis of the deposited data

Results flagged for a closer look

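Vim and Cd44 each had 1 library far from the other libraries of its group. In tMCAO_CON, Vim was at 102 CPM in replicate 3 and at 53.7 to 61.5 CPM in the other libraries. Its gap to the nearest library was 0.835 of the range of the group, above Dixon's 95% critical value for 4 libraries. Cd44 was at 21.8 CPM in the same library and at 6.31 to 8.39 CPM in the others, with a gap of 0.865 of the range. Of 20 sets of 4 libraries (each gene in tMCAO_CON and in sham_DE) these 2 exceeded their critical value, and chance alone exceeds it in about 1 of 20. Without replicate 3 the log2 fold change on occlusion was 1.30 for Vim (edgeR adjusted p = 0.0022) and 2.31 for Cd44 (adjusted p = 0.00011).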

How the results depend on the processing

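Only 2 libraries stand for tMCAO_DE, and Slc10a6, Ptx3 and Tgm1 had 0, 6 and 8 counts in sham_CON. Of 638 alternative values of the 29 called member results, 634 kept direction and side of the threshold and 0 reversed. The exceptions were Steap4, given above, and Cd44 after depletion with limma on log2(FPKM + 1), at 0.53 (adjusted p = 0.080). Limma on log2(FPKM + 1) gave smaller folds for low genes (Steap4 on depletion 0.58, Cd44 on occlusion 0.73). With libraries left out in turn, the members called were 9 to 9 of 10 on occlusion, 1 to 2 on depletion, 9 to 9 on occlusion after depletion, 0 to 1 on depletion in occluded brain, 0 to 1 for the interaction and 8 to 8 for occlusion against depletion. DESeq2 and limma with either pseudocount called 1 member, Gfap, for the interaction, at -1.53 (adjusted p = 3.4e-05), -1.60 (0.047) and -1.54 (0.039), and so did edgeR without sham_CON replicate 2 (-1.80, adjusted p = 0.037). Replicate numbers do not pair the animals. After each gene's group mean was subtracted, correlations between same-numbered libraries of different groups were -0.0641 to 0.106. For libraries with other numbers they were -0.138 to 0.136. On these values, 4 of 13 libraries correlated best with a library of their own number. With a replicate block the members called were 9, 2, 9, 1, 0 and 8, in the order of the comparisons above. Over all genes, calls ranged from 564 (without sham_CON replicate 3) to 1992 (DESeq2) on occlusion, against 1430, and from 219 (without sham_CON replicate 2 and sham_DE replicate 3) to 3725 (without sham_DE replicate 1) on depletion, against 1921. They ranged from 453 (without tMCAO_DE replicate 2) to 2650 (DESeq2) on occlusion after depletion, against 2106, from 346 (without tMCAO_DE replicate 2) to 3873 on depletion in occluded brain, against 3155, and from 1 to 114 (DESeq2) for the interaction, against 8. No called result reversed. Values of uncalled log2 fold changes that reversed follow. With the block these were Lcn2 (interaction, -0.21), Tgm1 (depletion in occluded brain, 0.22) and Vim (depletion in occluded brain, 0.053). With sham_CON replicate 2 and sham_DE replicate 3 left out they were Lcn2 (interaction, -0.36) and Vim (depletion, 0.072, and interaction, -0.12). With limma they were Ptx3 (depletion in occluded brain, 0.16 and 0.0052), Slc10a6 (interaction, 0.47 and 0.41) and Steap4 (interaction, 0.048 and 0.64). With single libraries left out, depletion in occluded brain ranged from -0.69 to 0.071 for Cd44, -0.57 to 0.42 for Ptx3, -0.10 to 0.18 for Serpina3n, -0.70 to 0.36 for Tgm1 and -0.14 to 0.21 for Vim, depletion alone from -0.063 to 0.22 for Cd44 and -0.054 to 0.19 for S1pr3, and the interaction from -0.42 to 0.68 for Lcn2, -0.97 to 0.15 for Steap4 and -0.034 to 0.46 for Vim. The cause of these changes was not tested.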

Other observations

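Levels of different genes can be set beside each other only per length, and here the order depends on the length. Dividing counts by the deposited FPKM gave an implied length of 7835 bases for Vim, 4883 for Lcn2, 4753 for Gfap and 12554 for Cd44, where the main GENCODE transcript has 2193, 908, 2648 and 5614 bases. For Serpina3n the values were 2071 and 2064. Per kilobase of the main transcript, Lcn2 was above Vim in tMCAO_DE, at 40.3 and 30.0 CPM per kb, and by the deposited FPKM it was below Vim, at 7.61 and 8.51 FPKM. Gfap had the highest level per length of the 10 genes on both scales in every group, with a mean of 138 FPKM in tMCAO_DE, 184 in tMCAO_CON, 31.4 in sham_DE and 13.99 in sham_CON.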
